A study of Mus musculus with 2 samples.

Results

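Integrins and lymphocyte homing receptors decide where a T cell goes and how firmly it holds on there. The members described here were 9 genes: the integrin beta chains Itgb1, Itgb2 and Itgb7, the integrin alpha chains Itga4, Itgal and Itgae, the selectin ligand Selplg, the hyaluronan receptor Cd44 and the chemokine receptor Ccr7. They were taken by gene symbol from the platform annotation, which gave 9 of 6137 named genes and 12 of the 13179 probe sets on the Affymetrix Mu11k pair of chips, with 5 on the chip called subA and 7 on subB. Expression values were not used to choose them, but earlier results of the same arrays were known when the list was drawn up. Itga4 was the 1 member with probe sets on both chips, and no member lay on a probe set that carries several symbols.

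The cells were CD4+ T cells, the helper class, purified from spleen and lymph node of female B10.PL mice with a transgenic T-cell receptor. That receptor recognises the peptide Ac1-11 of myelin basic protein, a protein of the myelin sheath, so all cells of the study share it. The labels give a time of 48 h, no age and no number of animals, and the series sets stimulation with 4Y, which the labels name without describing it, against stimulation with Ac1-11. The sample titles also carry the tag TCL, which is not interpreted here. For each chip the levels of 1 array were deposited, together with a table that compares it with a second, baseline array. There were no replicates, so precision is limited by the number of arrays.

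Which stimulus stands on which side could not be read from the files. Sample values labelled Ac1-11 matched, at all 6584 probe sets of subA and all 6595 of subB, the experiment called 4Y in the authors' deposited table. In addition, 11 named genes had an increase or decrease call on both chips, and all 11 ran in opposite directions. One of them, the cytokine gene Il4, was read by the same probe set, IL4_at, on both. Its level was 240 on the deposited and 7550 on the baseline array of subA, but 7451 on the deposited and 310 on the baseline array of subB. Of 21 probe sets shared by the chips besides controls, 3 had such a call on both, and all 3 ran in opposite directions. Values are therefore given for each chip by itself as deposited over baseline array, and a direction on subA cannot be set against a direction on subB.

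Integrins are heterodimers of an alpha and a beta chain, and the pairing sets the ligand. In T cells, Itga4 pairs with Itgb7 to form the gut homing receptor for MAdCAM-1, or with Itgb1 to form VLA-4, which binds VCAM-1 and fibronectin. Itgae also pairs with Itgb7, in a receptor for E-cadherin on epithelium, and Itgal pairs with Itgb2 to form LFA-1, which binds ICAMs on antigen-presenting cells and endothelium. Selplg encodes PSGL-1, on which T cells roll along selectins, Cd44 binds hyaluronan and marks activated and memory T cells, and Ccr7 guides naive T cells to CCL19 and CCL21 in lymph nodes.

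Levels are average differences, the mean of perfect match minus mismatch signal over the probe pairs of a probe set, and can be negative. The baseline level was obtained by subtracting the deposited change from the deposited level. A member is called changed where the authors' deposited table gave a fold of at least 2 either way and a call of increase or decrease, and where the probe set was called present on the deposited array or not marked absent on the baseline array. The last condition is called detected below. This is a rule of size on a pair of arrays, not a test, and there is no p-value. Folds, calls and probe pair scores come from the authors' deposited table throughout, and a fold there can exceed the ratio of the levels.

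On subA, Itgb7 was higher and Ccr7 was lower on the deposited array, which made 2 changed members among 4 detected probe sets. The background on that chip was 149 of 3343 detected probe sets changed, or 4.46%, with 1.76% higher and 2.69% lower. On subB, Itgb2 was lower and was the 1 changed member among 4 detected probe sets, against a background of 113 of 1813, or 6.23%, with 4.25% higher and 1.99% lower. The remaining 4 of the 12 probe sets were not detected. So few probe sets give no basis for calling a share of members high or low against the background.

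**Figure D1:**
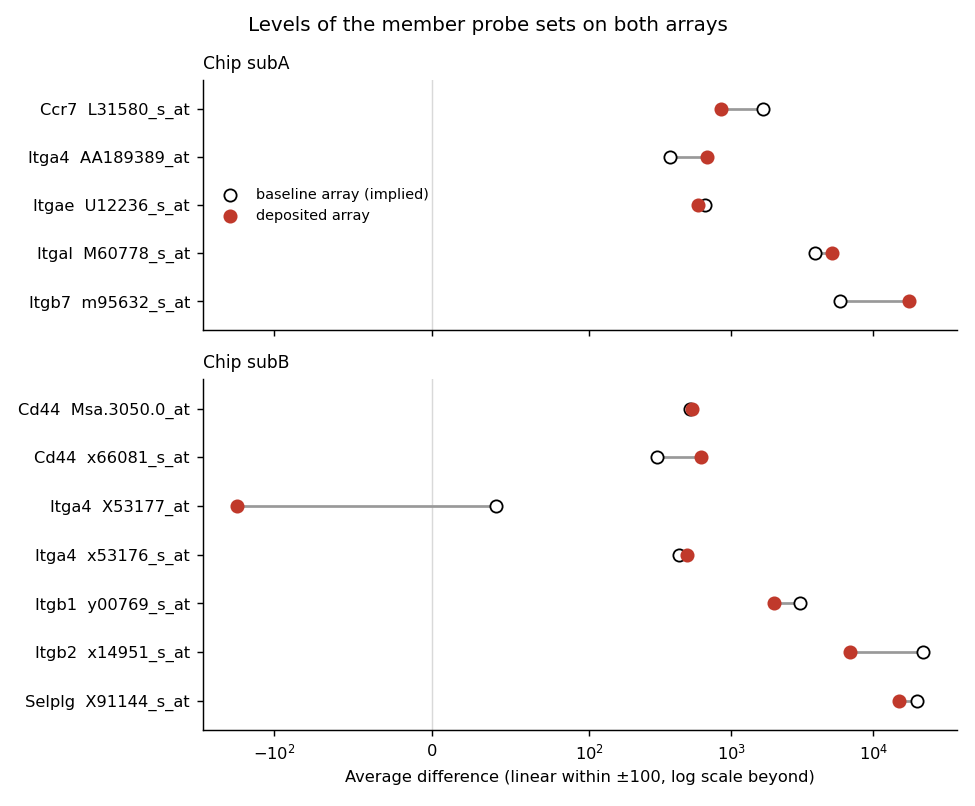
Levels of the 12 member probe sets in average difference units, on an axis that is linear within ±100 and logarithmic beyond. Filled points are the deposited array and open points the implied baseline array, so only the 2 points of a row should be compared. Itgb7 moves from 5878 to 17872, and Itgb2 from 22457 to 6897.

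Itgb7, the beta chain shared by the gut homing and E-cadherin receptors, had a level of 17872 on the deposited array of subA and 5878 on the baseline array. The deposited level lay 11994 units above the baseline. The probe set was called present on the deposited array and was not marked absent on the baseline array, as were those of Itga4 on subA, Itgal, Ccr7, Itgb2 and Selplg below. In the authors' deposited table this was a 3.4-fold increase with an increase call. Of its 20 probe pairs, 18 were scored as increased and 0 as decreased there. The ratio of the levels themselves was 3.04. Of 3343 detected probe sets on the chip, 40 had a larger deposited log2 fold than its 1.77. Probe sets with high levels ran upward on this chip. Its top 5% by mean level, from 10619.5 units up, gave a median of 0.38 on the log2 scale. The 6 spike-in probe sets that were present, which read bacterial control RNA, had folds from 1.5 to 2.1 in the authors' deposited table. Their median was 0.68 on the log2 scale, and no fold on the chip was corrected for it. After removal of a running median over the level, the log2 fold of Itgb7 was 1.5. In RNA from a cell population, fewer cells of a type and less RNA per cell cannot be told apart.

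The alpha chains that pair with Itgb7 gave weaker readings. Itga4 had a level of 672 on the deposited array of subA and 368 on the baseline array. The authors' deposited table gives a 1.8-fold increase without a difference call, with 6 probe pairs of 20 scored as increased and 1 as decreased. Its deposited log2 fold of 0.85 was short of the threshold of 2-fold but larger than the spread among probe sets that read 1 gene. That spread, an SD per probe set of 0.46 on the log2 scale, was taken over 251 genes with 2 detected probe sets on subA. It is no measure of replicate error. The spike-in median on this chip was 0.68 on the log2 scale, and the running median at the level of Itga4 was 0.

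The 2 Itga4 probe sets on subB were called absent on both arrays. The first, x53176_s_at, read 490 on the deposited and 426 on the baseline array, and the second, X53177_at, read -182 and 41. Their deposited folds were 1.1 higher and an approximate 1.5 lower, so subB gave no reading of Itga4 that could be told from background. Itgae, the other partner, was called absent on both arrays of subA, with levels of 586 and 655. The authors' deposited table gives it a fold of 1.1 lower, with 2 probe pairs increased and 1 decreased. The higher reading of Itgb7 thus stood beside a smaller difference without a call for Itga4 and no detected signal for Itgae.

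Of the 9 members, 4 had an entry in the RefSeq table of regions around transcription starts of GRCm38.p6: Cd44, Itga4, Itgb1 and Itgb7. The starts of Itgb7, the member with the increase call on subA, and of its partner Itga4 are shown 5′ to 3′ on the strand of the gene, from 250 bases before to 50 after the start. Itgb7 lies at chr15:102231886-102232185 on the minus strand and Itga4 at chr2:79255176-79255475 on the plus strand. Capitals mark every match, on either strand, to 3 short words known from transcription factors of T cells: CACCC or GGGTG (KLF family), AGGAAG or CTTCCT (ETS family) and TGTGGT or ACCACA (RUNX family).
Itgb7: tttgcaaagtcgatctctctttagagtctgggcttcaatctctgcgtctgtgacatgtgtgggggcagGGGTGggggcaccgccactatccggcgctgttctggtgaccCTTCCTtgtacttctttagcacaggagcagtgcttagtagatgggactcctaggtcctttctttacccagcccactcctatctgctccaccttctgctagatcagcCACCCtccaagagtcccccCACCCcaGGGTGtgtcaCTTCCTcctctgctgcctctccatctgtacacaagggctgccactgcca
Itga4: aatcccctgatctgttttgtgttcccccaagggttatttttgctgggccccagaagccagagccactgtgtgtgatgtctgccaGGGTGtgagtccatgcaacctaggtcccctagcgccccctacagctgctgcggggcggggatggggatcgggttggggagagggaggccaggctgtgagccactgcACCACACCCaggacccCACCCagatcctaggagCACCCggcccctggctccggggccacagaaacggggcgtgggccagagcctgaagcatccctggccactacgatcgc
The Itgb7 sequence holds 4 KLF words and 2 ETS words. The Itga4 sequence holds 4 KLF words and 1 RUNX word, which overlaps a KLF word. Of 32851 sequences in the same table, 57.5% hold at least 1 KLF word, 35.4% at least 1 ETS word and 16.8% at least 1 RUNX word. The share that holds as many as 4 KLF words was not computed. The arrays measured RNA and not binding, so a match is a description of the letters.

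Itgb2, the beta chain of LFA-1 and of the other leukocyte beta2 integrins, was the changed member of subB. Its level was 6897 on the deposited and 22457 on the baseline array, the lower of the 2 being the deposited one. The authors' deposited table gives a 3.7-fold decrease with a decrease call, with 19 of 20 probe pairs scored as decreased and 0 as increased. The ratio of baseline to deposited level was 3.26, and 24 of 1813 detected probe sets had a lower deposited log2 fold than its -1.89. Against the running median of probe sets of similar level it was -1.75. The top 5% by mean level on subB had a median of -0.26 on the log2 scale. The 7 spike-in probe sets present there had folds from 1.1 lower to 2.9 higher in the authors' deposited table, with a median of 0.38 on the log2 scale. Its alpha chain Itgal was on the other chip. Itgal read 5091 on the deposited and 3856 on the baseline array of subA, a 1.3-fold increase without a difference call in the authors' deposited table, with 3 probe pairs increased and 0 decreased. The log2 fold of Itgal, 0.38, was within the spread among probe sets that read 1 gene.

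As deposited, Itgb7 was thus higher on subA and Itgb2 lower on subB, directions that cannot be set against each other. The count of changed members over both chips, 1 higher and 2 lower as deposited, depends on which sides of the chips are matched. Turning the signs of subB gave 2 higher and 1 lower. Whether Itgb7 and Itgb2 differed in the same or in opposite directions between the stimuli is not stated in these files. If the reversal of all 11 genes called on both chips held for every probe set, both would differ in the same direction. Neither had a probe set on both chips, so that was not tested.

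Itgb1, the beta chain of VLA-4 and other receptors for matrix, was called marginal on the deposited array of subB and was not marked absent on the baseline array. Its levels were 1996 and 3039. The authors' deposited table gives a fold of 1.3 lower without a difference call, with 2 probe pairs increased and 3 decreased. The pairs were split, and the log2 fold of -0.38 was within the corresponding spread on subB, 0.62 over 51 genes. On the same arrays the log2 fold was -1.89 for Itgb2 and -0.38 for Itgb1, a difference that was not tested.

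**Figure D2:**
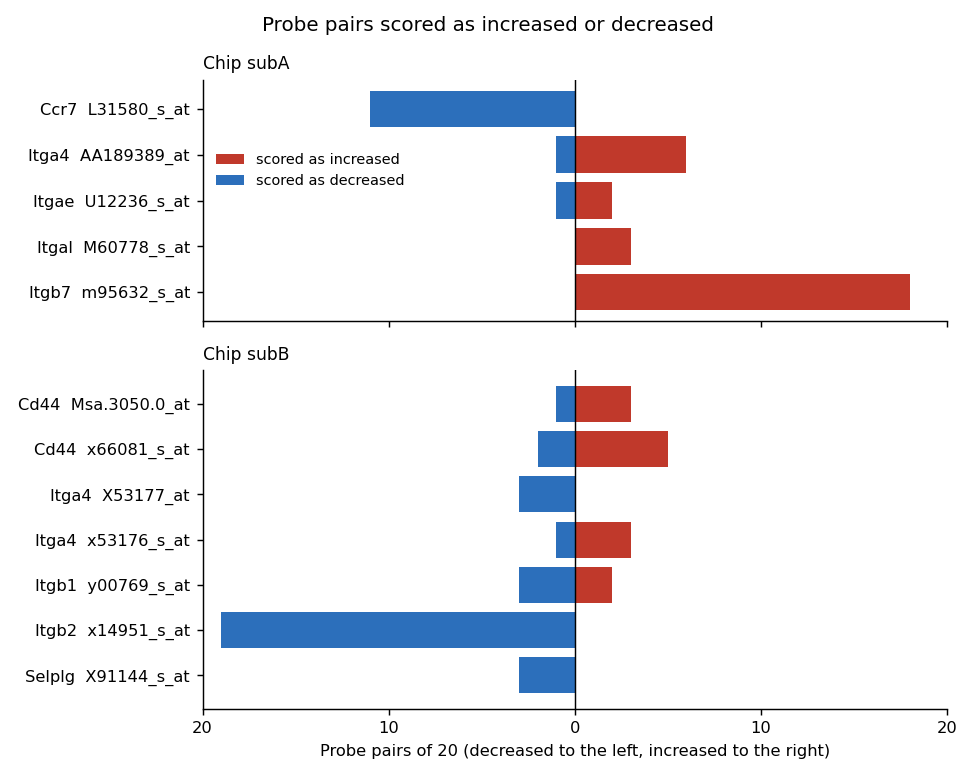
Number of probe pairs, of 20 in each member probe set, scored as increased (right) or decreased (left) in the authors' deposited table. Itgb7 has 18 increased pairs, and Itgb2 and Ccr7 have 19 and 11 decreased pairs, while every other probe set has at most 6 in a direction.

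Among the homing receptors that are not integrins, Ccr7 carried a call. Its level was 842 on the deposited and 1671 on the baseline array of subA, so the baseline was the higher. The authors' deposited table gives a 2.3-fold decrease with a decrease call, with 11 of 20 probe pairs decreased, 0 increased and 9 scored as neither. The fold recomputed from the levels was 1.98, below the threshold of 2, so the call of Ccr7 rests on the deposited fold. Its deposited log2 fold was -1.20, and 119 of 3343 detected probe sets had a lower one.

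Selplg, the selectin ligand, had levels of 15183 on the deposited and 20467 on the baseline array of subB. The authors' deposited table gives a fold of 1.3 lower without a difference call, with 3 probe pairs decreased and 0 increased. That log2 fold, -0.38, was within the spread among probe sets that read 1 gene. Cd44 had 2 probe sets on subB, both marked absent on the baseline array. The probe set built on U57612 read 528 on the deposited array, called present, and 508 on a baseline marked absent, with a deposited fold of 1.0. The other, built on X66081, was called absent on both arrays at 607 and 298, with an approximate fold of 1.7 higher and 5 probe pairs increased against 2 decreased. Neither had a difference call, and the second had no signal that could be told from background on either array.

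**Figure D3:**
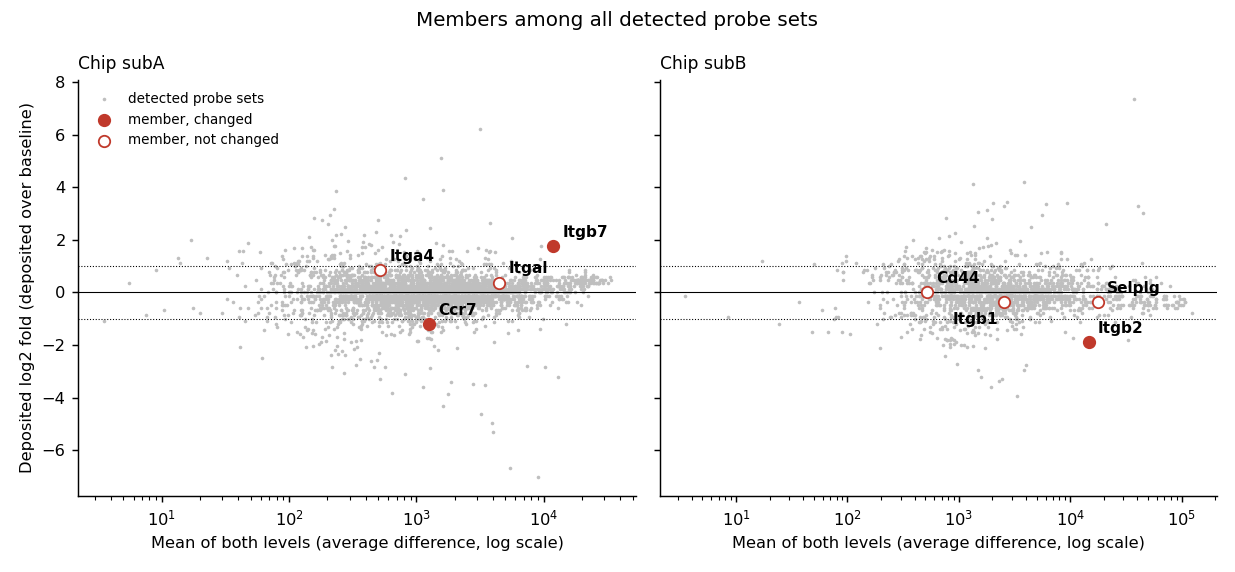
Deposited log2 fold, deposited over baseline array, against the mean of both levels (average difference, log axis) for detected probe sets with a mean above 0. Grey points are all such probe sets, filled red points are changed members and open red points the other detected members, and dotted lines mark a fold of 2. Itgb7 at 1.77 and Itgb2 at -1.89 lie outside the bulk of probe sets of a similar level, and Ccr7 at -1.20 lies just past the line.

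The other genes of adhesion and homing were read from 6 lists, which held 87 genes with a probe set on at least 1 chip. On subA, 2 of 34 detected probe sets were changed, both higher, a share of 5.88% beside 4.46% over the chip. The median log2 fold of the 34 was 0.07, against 0 over all detected probe sets. On subB, 2 of 24 were changed, both lower, a share of 8.33% beside 6.23% over the chip. Their median was -0.54 against 0, and 17 of the 24 had a fold below 1, as had 47.8% of all detected probe sets. Both shares of changed probe sets rest on 2 probe sets each.

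The integrin activators and cytoplasmic partners held 3 of the 4. Fyb, which encodes the adaptor ADAP that links the T-cell receptor to integrin activation, was changed by both of its probe sets on subA, which share a source sequence. AF001863_at read 940 on the deposited and 359 on the baseline array, a 3.8-fold increase in the authors' deposited table with 15 of 20 probe pairs increased. AF001863_g_at read 4408 and 2672, a 2.1-fold increase with 10 pairs increased, but the ratio of these levels was 1.65. Tln1, which encodes talin, the protein that binds integrin beta tails and switches them to the active state, was lower on subB by an approximate 12.0-fold through 1 of its 2 probe sets. That probe set read -333 on the deposited array, called absent, and 4232 on the baseline array, with 12 probe pairs decreased, so the size of the fold is uncertain. The other Tln1 probe set on subB, which shares a source sequence with the first, was 3.0-fold lower without a difference call. The 1 detected on subA was 1.1-fold higher, a direction that cannot be set against subB. In all, 2 of 18 detected probe sets of the list, both of Fyb, were changed on subA (4.46% over the chip) and 1 of 11 on subB (6.23% over the chip).

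Itgb5, a beta chain of vitronectin receptors, was the other changed gene on subB. Its level was 619 on the deposited array, called absent, and 1766 on the baseline array, a 2.9-fold decrease in the authors' deposited table with 9 probe pairs decreased and 1 increased. It was the 1 detected probe set of the other integrin chains on that chip. On subA none of 3 was changed. Itga3 had a fold of 1.1 higher in the authors' deposited table, and the integrin-binding protein gene Itgb1bp1 of 1.2 higher. Itgav had a fold of 1.4 lower by its detected probe set. Its other probe set, called absent on both arrays at -29 and 65, had an approximate fold of 2.0 lower. That one had a decrease call, with 8 probe pairs decreased and 1 increased.

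The remaining 4 lists held no changed probe set on either chip. Among integrin ligands and adhesion receptors, Cd47, a partner of integrins at the cell surface, had an increase call on subA at 1.8-fold and a fold of 1.3 lower without a call on subB. Pecam1 and Cd6, both adhesion receptors of leukocytes, had folds of 1.8 and 1.1 higher on subA without a call. The tetraspanin gene Cd81 had a decrease call on subB at 1.9-fold, with 12 probe pairs decreased and 0 increased. Cd2, an adhesion receptor of T cells, had a fold of 1.1 higher there, and its ligand Cd48 of 1.9 lower, both without a call. Alcam, a ligand of CD6, was 7.6-fold higher over a baseline marked absent, with 12 probe pairs increased and no difference call, and its ratio of levels was 2.53. Among chemokine and lipid homing receptors, Cxcr4, the receptor for CXCL12, had a fold of 1.3 higher on subA and an approximate 4.3 lower on subB, neither with a call. Ccr2 and Ccr4, receptors for inflammatory and for skin and Th2 chemokines, had folds of 1.2 and 2.0 lower on subA without a call. S1pr1, the receptor that guides T cells out of lymph nodes, had a fold of 1.1 lower there, and Ccr1 of 1.1 higher on subB.

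Of the selectin list, B4galt1, a galactosyltransferase of glycan synthesis, had a fold of 1.7 higher and the selectin gene Selp of 1.5 lower on subA in the authors' deposited table. On subB the mucin gene Spn, which encodes CD43, and Cd34 had folds of 1.1 and 1.5 lower and the sulfotransferase gene Tpst1 of 1.2 higher, and none of these had a call. Of the list on CD44 cleavage and homing control, the protease gene Adam10, whose product cleaves CD44, had folds of 1.3 and 1.2 lower by its 2 probe sets on subA. Adam17 had a fold of 1.4 lower there, and the hyaluronan receptor gene Hmmr of 1.3 lower on subB. The homing regulator Klf2 was on subA and was not detected.

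**Figure D4:**
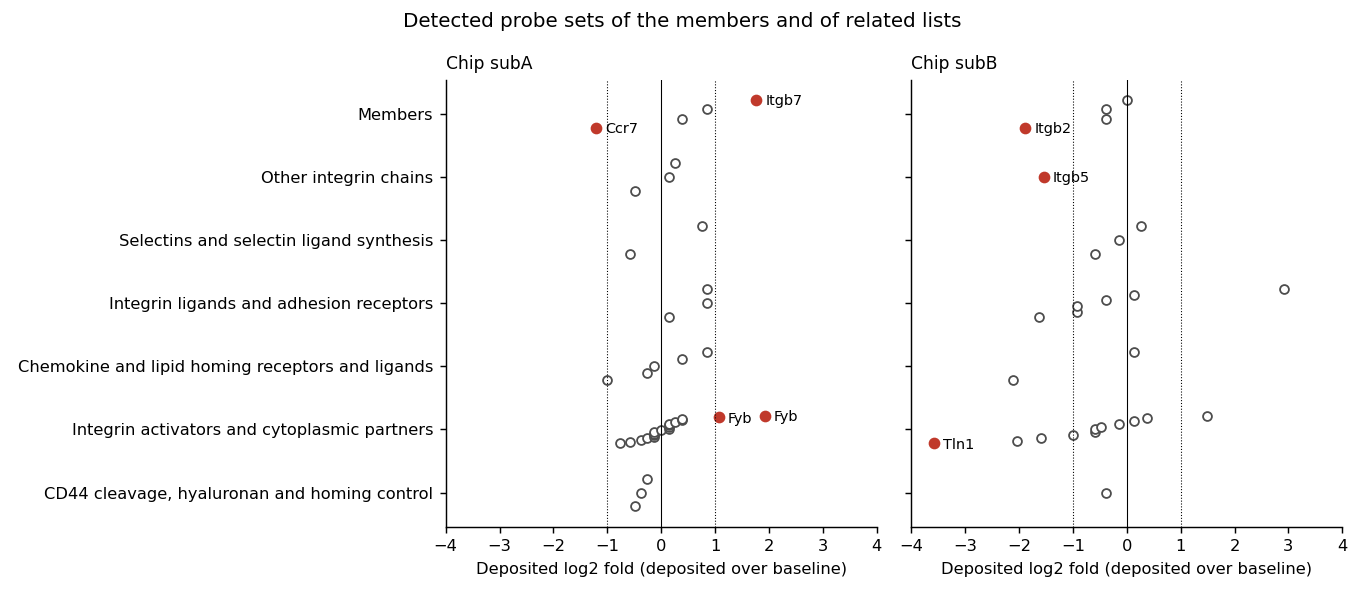
Deposited log2 fold, deposited over baseline array, of each detected probe set of the members and of the 6 related lists on each chip. Filled red points are changed probe sets and open points the others, and dotted lines mark a fold of 2. The changed probe sets are those of Itgb7, Ccr7 and Fyb on subA and of Itgb2, Itgb5 and Tln1 on subB.

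The identity of the cells was checked with marker lists. All 10 CD4 T cell marker probe sets on the chips were detected, and Cd8a was not. On subA, 2 of the 4 had a fold above 1 and 2 below, with a median log2 fold of -0.12 against 0 over the chip. Their summed level was 17949 on the deposited and 16134 on the baseline array, with Cd3e higher (13557 against 9955) and Cd28 1.6-fold lower with a decrease call in the authors' deposited table. On subB, 5 of the 6 had a fold below 1, the direction of Itgb2, as had 47.8% of all detected probe sets. The median log2 fold of the 6 was -0.37 against 0 over the chip, and the sums were 102741 and 136789. Cd3g, Cd3d and Cd4 had decrease calls there, with folds of 2.1, 1.8 and 1.4 lower. Of the 6, Cd3g was the 1 that met the rule for changed, beside 6.23% over the chip. Thy1 had a fold of 1.2 lower and Cd2 of 1.1 higher without a call.

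Leukocytes of other kinds also carry the beta2 chain. Of the macrophage and monocyte markers, 2 of 5 probe sets on subA were detected, and these summed to 5927 on the deposited and 2993 on the baseline array. Lyz2 went from 2286 on the baseline to 5294 on the deposited array, 6.2-fold higher without a difference call in the authors' deposited table, and Cd68 from 707 to 633. The higher sum thus came from Lyz2. On subB 2 of 4 were detected, with sums of 1908 on the deposited and 3177 on the baseline array, and Cd14 had a fold of 1.6 lower without a call. Of the dendritic cell markers, Flt3 was detected on subB at 802 on the deposited and 1716 on the baseline array, 2.1-fold lower without a call. On subA Cd83 had a fold of 6.1 lower without a call and Cst3, by its detected probe set, of 1.1 higher. The 5 detected of 13 B cell and plasma cell probe sets on subA summed to 4763 and 5924, and the 1 detected of 4 on subB read 2820 and 2118. No granulocyte or mast cell marker was detected on subA (6 probe sets), and S100a8, 1 of 3 on subB, had a fold of 1.1 lower. Of 2 Hba-a1 probe sets on subB, 1 was detected, with a fold of 2.0 lower without a call, and the 2 NK cell probe sets on subA were not detected. The detected macrophage and dendritic cell markers of subB had folds in the direction of Itgb2. So had 5 of the 6 CD4 T cell markers, S100a8 and the detected Hba-a1 probe set, while the B cell probe set ran the other way. On subA, Lyz2 and Cst3 had folds in the direction of Itgb7. Cd68, Cd83 and the 5 detected B cell and plasma cell probe sets ran the other way there. The part of other cell types in either result was not tested.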

How the data were processed

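The members and lists were chosen with earlier results of these data known. Biotinylated cRNA of purified CD4+ T cells was hybridised to the Affymetrix Mu11k chips, per the labels. The authors deposited array intensity values as average differences per probe set. Per the file headers, their signed fold, calls and scored probe pairs come from a 2-array comparison, and software version and scaling are not given in the sources used here. The intensity was below 0 for 20.8% of probe sets on subA and 35.5% on subB. 

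Gene names came from the platform annotation, with 5560 on subA and 2001 on subB holding 1 symbol, 197 and 27 several and 827 and 4567 none. Lookup by Entrez ID in RefSeq altered 0 symbols. An asterisk beside the baseline was read as absent, because baselines with an asterisk had a median of 58 (subA) and 64 (subB), and the others of 1243 and 2673. Control probe sets, 55 per chip, were not counted. The text names all members and every changed gene of the related lists. Where a list had no changed gene on a chip, it names up to 4 detected genes with the highest mean level on that chip. Klf2, the second Tln1 and Itgav probe sets and the marker genes named were chosen after their values were seen. The subA probe set of Tln1 and the subB probe set of Cd47 also fall outside this rule. Cutoffs, calls, detection, a level floor of 100, centring and a running median over 300 probe sets were varied, and the procedures were tested on simulated data. In that simulation the call followed from the simulated fold, and the noise was smaller than the spread among probe sets that read 1 gene. It therefore checked the code and not the error rate on these arrays. Columns of other samples numbered 0. The scripts ran under Python 3.11.15, with NumPy 2.4.6, pandas 2.3.3 and matplotlib 3.10.9.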

Additional observations from a re-analysis of the deposited data

How the results depend on the processing

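The 12 member probe sets gave 20 recomputed log2 folds, with levels floored at 100 or the running median removed. All 20 moved by less than the SD among probe sets that read 1 gene. Probe sets that were not detected had only the floored value. Centring could move no value, since the median log2 fold was 0 on both chips. Of the count of 2 changed members on subA, 1 (Itgb7) was left with a fold threshold of 3 and 1 (Itgb7) with folds recomputed from floored levels, and Itgb2 stayed the 1 on subB under the 9 alternatives besides centring. With the sign of subB turned, a choice made after the data were seen, 2 of the 3 changed members were higher instead of 1. The 2 changed probe sets of related genes on subA became 1 with a threshold of 3, 1 with floored levels and 4 with no presence call required. On subB 2 became 1 with a threshold of 3, 9 with no difference call required, 0 with presence on both arrays required and 1 without approximate folds. Over all probe sets, 149 changed on subA became 235 at a threshold of 1.5, 66 at 3, 383 with no difference call and 92 with presence on both arrays. On subB 113 became 46 at a threshold of 3, 275 with no difference call, 48 with presence on both arrays, 176 with no presence call and 66 without approximate folds. No paired analysis was possible because each chip has 1 array per condition.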
